A study of Mus musculus with 12 samples.

Results

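The 10 genes described here lie around *Cyp27b1* on mouse chromosome 10. They are *Ctdsp2*, *Avil*, *Tsfm*, *Eef1akmt3* and *Mettl1* on the side of the *Cyp27b1* start, and *Cdk4*, *Tspan31*, *Agap2*, *Os9* and *B4galnt1* beyond it. They were chosen by position and name among the 55401 genes of the deposited kidney tables, and *Cyp27b1* serves only as the reference. The question was whether the rise of *Cyp27b1* mRNA after SK-124, a selective SIK2/SIK3 inhibitor, is shared by the genes next to it. Whole kidneys came from male C57BL6 mice aged 8 weeks. The 6 control mice received the vehicle, 15% 2-hydroxypropyl-beta-cyclodextrin, and the other 6 mice received SK-124 at 40 mg/kg, each as a single intraperitoneal injection, with 1 RNA-Seq library per mouse. No genetic change is stated for either group, and the time between injection and collection of these kidneys is not given in the sources used here.

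*Cyp27b1* encodes the renal enzyme that makes active vitamin D, and parathyroid hormone switches it on in proximal tubule cells. Salt-inducible kinases keep CRTC coactivators out of the nucleus. When the kinases are inhibited, CRTC2 enters and works with CREB on enhancers. In mice the hormone-responsive enhancers of *Cyp27b1* lie not in the gene itself. The authors place them within *Mettl1* and *Mettl21*. *Eef1akmt3* was formerly called *Mettl21b*, so these neighbours hold the switch of *Cyp27b1* within or beside their own sequence. The neighbours are otherwise unrelated in function: they serve tRNA and protein methylation, mitochondrial translation, the cell cycle, protein quality control, phosphatase signalling and ganglioside synthesis.

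The genes are packed closely (GRCm38, GENCODE M21). *Ctdsp2* spans 126978717 to 126999975 on the plus strand, *Avil* 127000709 to 127020994 on the plus strand, *Tsfm* 127011572 to 127030840 on the minus strand, *Eef1akmt3* 127031004 to 127041513 on the minus strand and *Mettl1* 127041414 to 127046365 on the plus strand. *Cyp27b1* (ENSMUSG00000006724.12) follows at 127048250 to 127053006 on the plus strand. Beyond it *Cdk4* spans 127063534 to 127067920 on the plus strand, *Tspan31* 127067280 to 127070264 on the minus strand, *Agap2* 127075284 to 127093169 on the plus strand, *Os9* 127095650 to 127121131 on the minus strand and *B4galnt1* 127165225 to 127172330 on the plus strand. The *Agap2* identifier in the deposited tables carries another version than in this annotation. Measured from start to start, *Eef1akmt3* is 6.7 kb and *Mettl1* 6.8 kb from *Cyp27b1*, *Cdk4* is 15.3 kb away, and *B4galnt1* is the farthest at 117.0 kb. Genes on opposite strands overlap in 4 places: *Avil* with *Tsfm* over 9423 bases, *Cdk4* with *Tspan31* over 641, *Eef1akmt3* with *Mettl1* over 100 and *B4galnt1* with *Slc26a10* over 938. The use of strand in counting is not given in the sources used here, so reads from these overlaps could be assigned to either gene. Expected counts were whole numbers in every mouse for all 10 genes other than *Ctdsp2*, whose counts were fractional in all 12 mice.

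The promoters of *Cyp27b1* and of the neighbours that rose are shown because CREB binds the cAMP response element, TGACGTCA, and its half-site, TGACG. The RefSeq promoter table (GRCm38.p6) held 8 of the 10 neighbours, and each window covers 200 bases before and 5 bases after the annotated start. The windows are chr10:127048046-127048250 for *Cyp27b1*, chr10:127041732-127041936 for *Mettl1* and chr10:126978517-126978721 for *Ctdsp2*, all on the plus strand. Capitals mark the half-site (TGACG, or CGTCA on the other strand) and the CCAAT box (CCAAT, or ATTGG on the other strand).
Cyp27b1: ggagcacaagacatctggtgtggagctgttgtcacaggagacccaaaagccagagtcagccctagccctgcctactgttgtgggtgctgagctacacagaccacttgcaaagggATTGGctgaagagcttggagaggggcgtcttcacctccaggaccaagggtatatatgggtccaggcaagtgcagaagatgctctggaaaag
Mettl1: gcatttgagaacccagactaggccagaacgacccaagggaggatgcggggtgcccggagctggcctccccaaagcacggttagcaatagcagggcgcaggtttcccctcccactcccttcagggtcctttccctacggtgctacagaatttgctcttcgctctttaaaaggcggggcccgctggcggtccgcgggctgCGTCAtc
Ctdsp2: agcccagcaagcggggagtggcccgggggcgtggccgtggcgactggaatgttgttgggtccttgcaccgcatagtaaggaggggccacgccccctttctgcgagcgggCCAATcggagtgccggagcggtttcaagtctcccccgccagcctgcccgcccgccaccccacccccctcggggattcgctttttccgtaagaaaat
The *Mettl1* window held a half-site at position -2, at the RefSeq start itself, while the *Cyp27b1* and *Ctdsp2* windows held a CCAAT box, at -86 and -91. The RefSeq start of *Mettl1* is not the GENCODE start used above for distances and overlaps. Its window lies inside the GENCODE gene, which begins at 127041414. The half-site was also found in the windows of *Cdk4* (-90), *Tspan31* (-133) and *Os9* (-101), so 4 of 8 neighbours held it, as did 16.3% of all 32851 promoter windows of this length. The full element was in none of the 8 and in 1.6% of all windows. The CCAAT box was in 4 of 8 and in 29.7% of all windows. These matches are letters in a window only. *Eef1akmt3* and *B4galnt1* had no entry in the table.

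The libraries were alike in depth, with 19244227 to 19771802 expected counts each. The 10 genes with the most counts took 39.9% to 43.2% of a vehicle library. In SK-124-treated mice 1 to 3 the share was above that range and in mice 4 to 6 it reached 40.2% at most. Neighbours whose call differed between these mice are given with both values. For other genes the calls in these mice alone are given only as counts within 500 kb. Proximal tubule markers (*Lrp2*, *Slc34a1*, *Slc5a2*, *Cubn*) were abundant, with a summed level of 6179 to 7083 CPM in vehicle-treated and 5766 to 7456 CPM in SK-124-treated mice, and none of the 4 passed the test. Of all 32 markers of 11 cell types, 2 were called higher and 1 lower, beside 24.4% of all genes tested called in either direction. The bases differ, since not all 32 were tested: 0 of 4 tuft cell, 0 of 4 neuronal, 1 of 4 adrenal cortex and 2 of 3 leukocyte markers had enough reads. Among those called, *Aqp2* of the collecting duct rose and *Cd79a* of B cells fell, with log2 fold changes of 0.75 (FDR = 0.00085) and -1.75 (FDR = 0.00063, edgeR). The other collecting duct marker, *Atp6v1g3* (0.04, FDR = 0.785), and the leukocyte marker *Ptprc* (-0.29, FDR = 0.10) were not called. The summed markers overlapped between the groups for 9 of the 11 cell types. Those of leukocytes did not (4.56 to 5.80 CPM in vehicle-treated and 3.06 to 4.50 CPM in SK-124-treated mice), nor did those of tuft cells, given below with *Avil*. Whether a shift of cell types had a part in the results below was not tested, and in whole kidney fewer cells of a type and less RNA per cell cannot be told apart.

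*Cyp27b1* itself ranged from 3.12 to 8.54 CPM (median 5.07) in vehicle-treated mice and from 21.5 to 43.3 CPM (median 31.1) in SK-124-treated mice, a 5.89-fold rise (95% interval 4.24 to 8.18, FDR = 2.4e-07, edgeR). CPM are counts scaled to the TMM-adjusted library total. Among the neighbours 9 of 10 had enough reads for the test. *Eef1akmt3*, *Mettl1* and *Ctdsp2* rose, none fell, and 6 did not pass an FDR of 0.05. The rise was 1.83-fold for *Eef1akmt3* and about 1.2-fold for the other two. Across all 14159 genes tested, 24.4% were called, 10.8% as higher and 13.5% as lower, so the 3 of 9 neighbours called higher (33.3%) lay above the share of all genes, in a set of 9. The median log2 fold change was 0.16 over the 9 neighbours and -0.01 over all genes.

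**Figure D1:**
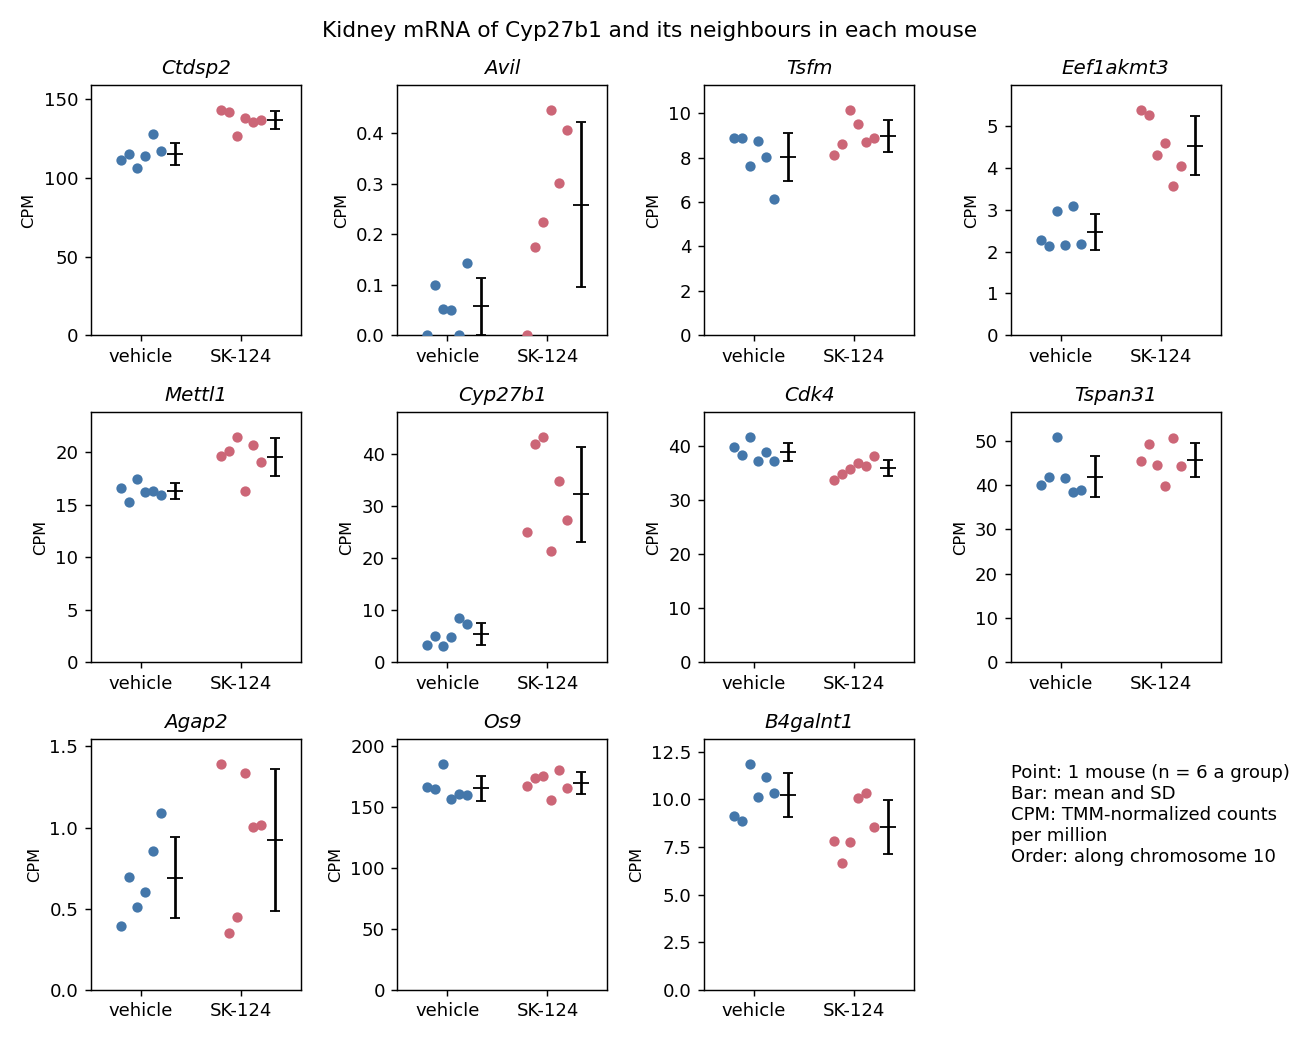
TMM-normalized CPM (vertical axes, each from 0) of *Cyp27b1* and its 10 neighbours, in their order along the chromosome, with 1 point per mouse and bars for the mean and SD of 6 mice. *Cyp27b1* and *Eef1akmt3* are the genes in which all 6 SK-124-treated mice lie above all 6 vehicle-treated mice.

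In TPM, which are scaled to transcript length so that levels of different genes can be compared, the neighbours spanned a wide range in vehicle-treated mice. *Os9* (65.4 ± 3.45, SD, n = 6) and *Cdk4* (63.2 ± 5.36) were the most abundant and did not differ beyond their spread. *Tspan31* (28.9 ± 1.67) and *Ctdsp2* (23.7 ± 2.60) followed, then *Mettl1* (13.2 ± 1.14), *Tsfm* (7.67 ± 0.982) and *B4galnt1* (4.50 ± 0.513 TPM). *Cyp27b1* stood at 2.32 ± 1.06 TPM, and *Eef1akmt3* (0.903 ± 0.169), *Agap2* (0.150 ± 0.0593) and *Avil* (0.0200 ± 0.0190 TPM) were lower still. After SK-124, *Cyp27b1* reached 12.1 ± 2.95 TPM, within the spread of *Mettl1* at 12.9 ± 2.01 TPM.

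*Eef1akmt3* (ENSMUSG00000080115.3) encodes a lysine methyltransferase of the translation elongation factor eEF1A. Its level was 2.13 CPM in the lowest, 2.23 in the median and 3.08 in the highest vehicle-treated mouse. In SK-124-treated mice the lowest was 3.56, the median 4.46 and the highest 5.39 CPM. The groups did not overlap, and all 6 SK-124-treated mice were above the highest control. The log2 fold change was 0.87 (SE 0.14, 95% interval 0.58 to 1.16, FDR = 0.00014, edgeR). Among all genes tested, 6.32% had all 6 SK-124-treated mice above all 6 controls and 6.65% had all 6 below. With SK-124-treated mice 1 to 3 alone it was 1.02 and with mice 4 to 6 alone 0.73, called in both. The gene rests on 43 to 93 reads per library. Only 1 transcript length, 2719 bases, was listed for it in every mouse.

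*Mettl1* (ENSMUSG00000006732.14), the catalytic subunit of the tRNA 7-methylguanosine methyltransferase, ranged from 15.3 to 17.5 CPM (median 16.3) in vehicle-treated mice. With SK-124 it ranged from 16.3 to 21.4 CPM (median 19.8). 5 of 6 SK-124-treated mice were above the highest control, and mouse 4, at 16.3 CPM, was inside the control range. The log2 fold change was 0.26 (SE 0.07, FDR = 0.0080, edgeR). With SK-124-treated mice 1 to 3 alone it was 0.32 (FDR = 0.0064), and with mice 4 to 6 alone 0.20 (FDR = 0.11). The call depended on the scale. With library totals in place of TMM it was 0.14 (FDR = 0.16), a setting in which the median of all genes was -0.12, so that *Mettl1* stood 0.26 above that median. In TPM, *Mettl1* was 13.2 ± 1.14 in vehicle-treated and 12.9 ± 2.01 in SK-124-treated mice (SD, n = 6), and limma on log2(TPM + 1) gave -0.04 (FDR = 0.81), or 0.07 above the median of all genes.

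TPM divide the reads by a mean transcript length that RSEM weights by its estimate of isoform use. For *Mettl1* this length ran from 1274 to 1402 bases (median 1353) in vehicle-treated mice and from 1357 to 1658 bases (median 1449) in SK-124-treated mice. The CPM and the listed transcript length of *Mettl1* thus both had higher medians in the SK-124 group, and the TPM comparison differs from the CPM comparison in scaling as well as in length. This comparison of lengths was made after the values were seen and was not tested. *Eef1akmt3* and *Mettl1*, whose 5′ ends overlap, differed in the size of their change: the log2 ratio of *Eef1akmt3* to *Mettl1* CPM had a median of -2.60 in vehicle-treated and -1.97 in SK-124-treated mice, a mean difference of 0.51 (two-sided exact permutation test p = 0.0065, 6 against 6 mice).

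*Ctdsp2* (ENSMUSG00000078429.9), a small phosphatase that acts on the C-terminal domain of RNA polymerase II and hosts *Mir26a-2*, starts 69.5 kb from *Cyp27b1*. It ranged from 105.9 to 127.6 CPM (median 114.3) in vehicle-treated mice and from 126.5 to 143.0 CPM (median 137.2) in SK-124-treated mice. 5 of 6 SK-124-treated mice were above the highest control, and the sixth overlapped with it. The log2 fold change was 0.25 (SE 0.05, FDR = 0.0018, edgeR). It was the same within SK-124-treated mice 1 to 3 (0.25, FDR = 0.024) and 4 to 6 (0.25, FDR = 0.017). With library totals it was 0.13 (FDR = 0.19), again 0.25 above the median of all genes, and with limma on log2(TPM + 1) it was 0.10 (FDR = 0.48). *Mir26a-2* was listed at 0 in all 12 mice.

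Between *Ctdsp2* and *Eef1akmt3* lie *Avil* and *Tsfm*. *Tsfm* (ENSMUSG00000040521.11), the mitochondrial elongation factor that recharges EF-Tu, ranged from 6.11 to 8.89 CPM (median 8.37) in vehicle-treated and from 8.11 to 10.1 CPM (median 8.79) in SK-124-treated mice. The groups overlapped, and the log2 fold change of 0.16 (95% interval -0.03 to 0.36, FDR = 0.23) did not pass the test. *Avil* (ENSMUSG00000025432.11) encodes advillin, an actin-binding protein of sensory neurons and tuft cells, and was close to the limit of detection. It had 0 to 3 reads per vehicle-treated mouse (0 to 0.142 CPM, median 0.0507) and 0 to 9 reads per SK-124-treated mouse (0 to 0.446 CPM, median 0.262). 4 of 6 SK-124-treated mice had more reads than any control, mouse 2 had the same 3 reads as the highest control, and mouse 1 had none. It was too low for the filtered test. Without the filter, edgeR gave a log2 fold change of 2.09 (FDR = 0.029), where 5.81% of 25286 genes were called higher, and DESeq2 gave 2.20 (FDR = 0.036).

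Of 4 tuft cell markers, *Gnat3* was at 0 in all 12 mice and *Trpm5* had at most 1 read. *Pou2f3* had 1 to 6 reads in vehicle-treated and 1 to 8 in SK-124-treated mice, and *Dclk1* had 2 to 7 and 9 to 31. Their summed level was 0.198 to 0.555 CPM in vehicle-treated and 0.579 to 1.67 CPM in SK-124-treated mice, and of 4 neuronal markers *Th* was at 0 in all mice. Their part in the *Avil* reads was not tested.

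Beyond *Cyp27b1*, none of the 5 neighbours passed the test. *Cdk4* (ENSMUSG00000006728.12), the kinase that with D-type cyclins phosphorylates RB, ranged from 37.2 to 41.6 CPM (median 38.6) in vehicle-treated and from 33.8 to 38.1 CPM (median 36.0) in SK-124-treated mice. 5 of 6 SK-124-treated mice were below the lowest control. The log2 fold change of -0.11 (SE 0.05, 95% interval -0.22 to -0.01) had an FDR of 0.12. It was -0.22 (FDR = 0.034) with library totals and -0.28 (FDR = 0.042) with limma on log2(TPM + 1), 0.10 and 0.17 below the median of all genes in those settings. *Tspan31* (ENSMUSG00000006736.9), a tetraspanin whose end overlaps that of *Cdk4*, ranged from 38.5 to 50.8 CPM (median 40.7) in vehicle-treated and from 39.7 to 50.6 CPM (median 45.0) in SK-124-treated mice. The difference on the log2 scale was 0.12 (FDR = 0.25), or 0.19 (FDR = 0.030) without vehicle-treated mouse 3, which had the highest value of its group. The log2 ratio of *Tspan31* to *Cdk4* was 0.24 higher with SK-124 (two-sided exact permutation test p = 0.019), and that of *Avil* to *Tsfm* 0.26 higher (p = 0.16, exact permutation test). With the ratio of *Eef1akmt3* to *Mettl1* above, these were the 3 pairs of overlapping neighbours.

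*Os9* (ENSMUSG00000040462.13), a lectin that hands misfolded glycoproteins of the endoplasmic reticulum to the dislocation complex, was measured with 2895 to 3626 reads per library. It ranged from 156.7 to 185.2 CPM (median 162.5) in vehicle-treated and from 155.8 to 180.2 CPM (median 170.9) in SK-124-treated mice. The groups overlapped almost fully. The fold change of 1.03 had a 95% interval of 0.949 to 1.11 (FDR = 0.67). *Agap2* (ENSMUSG00000025422.10), a GTPase-activating protein for Arf GTPases, had 6 to 27 reads per library. It ranged from 0.395 to 1.09 CPM (median 0.649) in vehicle-treated and from 0.351 to 1.39 CPM (median 1.01) in SK-124-treated mice, and a change from 0.840-fold to 2.13-fold was within its 95% interval (FDR = 0.38). The log2 fold change was 0.07 with SK-124-treated mice 1 to 3 and 0.69 with mice 4 to 6, and neither was called.

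*B4galnt1* (ENSMUSG00000006731.10), the synthase that builds the gangliosides GM2 and GD2, ranged from 8.87 to 11.9 CPM (median 10.2) in vehicle-treated and from 6.66 to 10.3 CPM (median 8.19) in SK-124-treated mice. 4 of 6 SK-124-treated mice were below the lowest control. The log2 fold change was -0.26 (SE 0.11, FDR = 0.089, edgeR). It was -0.46 (FDR = 0.011) with SK-124-treated mice 1 to 3 and -0.08 (FDR = 0.68) with mice 4 to 6, and -0.31 (FDR = 0.048) and -0.32 (FDR = 0.039) without SK-124-treated mouse 4 or mouse 5.

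The change of each neighbour was then set against that of *Cyp27b1* in the same mouse. The log2 ratio to *Cyp27b1* fell in all 10 neighbours, with no overlap between groups and the smallest p that 6 against 6 mice can give (two-sided exact permutation test p = 0.0022). The fall was smallest for *Eef1akmt3* (-1.73) and largest for *B4galnt1* (-2.75). This ratio carries the rise of *Cyp27b1* and did not overlap between groups for 98.6% of all other genes, so it shows only that the 9 neighbours with enough reads rose less than *Cyp27b1*, if at all. At the few reads of *Avil* its ratio is set by the constant of 0.5 added to the CPM, and the *Avil* change was not distinguished from that of *Cyp27b1*. Within the treatment groups, mice with more *Cyp27b1* were not found to have more of a neighbour. The slope of log2 neighbour on log2 *Cyp27b1* in edgeR lay between -0.10 (*Agap2*) and 0.07 (*Ctdsp2*) and was called for 0 of 9 neighbours, with none at an unadjusted p under 0.05. limma on log2 CPM likewise called 0. Over the 14158 other genes, 0.0% were called and 5.92% had an unadjusted p under 0.05. For *Eef1akmt3* the slope was -0.01 (95% interval -0.35 to 0.33), and for *Mettl1* 0.06 (-0.10 to 0.23). These intervals include slopes above 0 and no gene was called, so the slopes cannot tell a weak following of *Cyp27b1* from none.

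**Figure D2:**
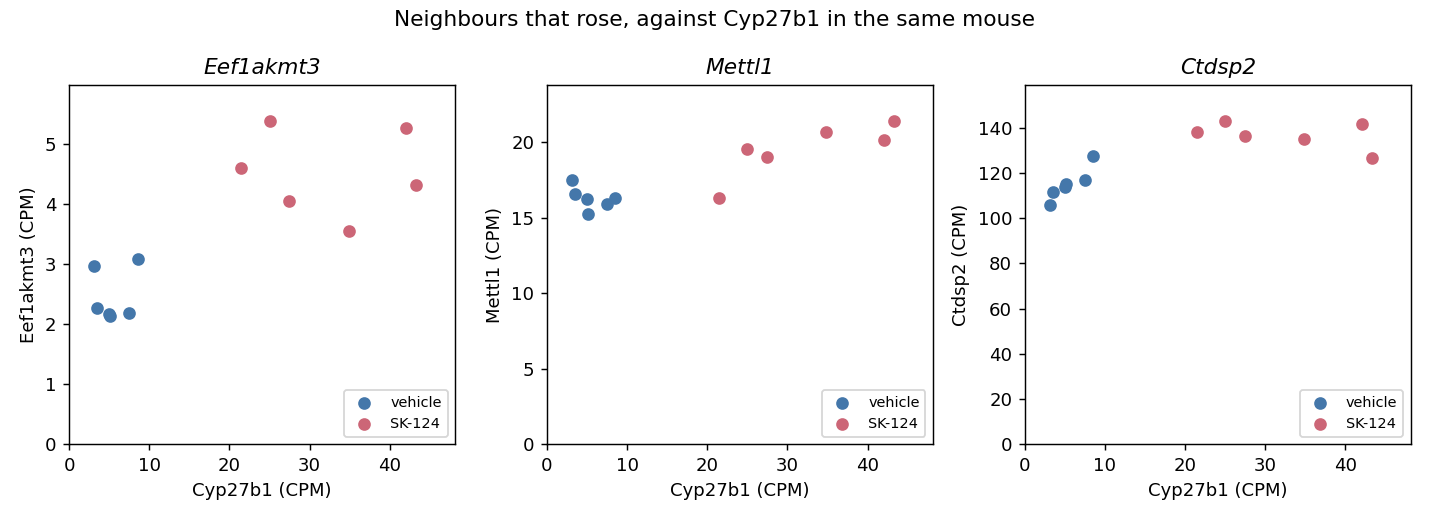
CPM of *Eef1akmt3*, *Mettl1* and *Ctdsp2* (vertical axes) against CPM of *Cyp27b1* (horizontal axes), with 1 point per mouse. The treatment groups stand apart along *Cyp27b1*, and among the 6 SK-124-treated mice the highest *Eef1akmt3* (5.39 CPM, mouse 1) is not in the mouse with the highest *Cyp27b1* (43.3 CPM, mouse 3).

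The neighbours were placed among all genes of the region. Within 100 kb of the *Cyp27b1* start 17 other genes are annotated, of which 10 were tested. The 4 tested genes before the start had log2 fold changes from 0.16 to 0.87, and 3 of them rose, beside 10.8% of all genes. With library totals or limma on log2(TPM + 1), *Eef1akmt3* was the only one of these 3 still called. The 6 tested genes after it, with *March9*, a membrane-bound ubiquitin ligase, as the nearest, ranged from -0.27 to 0.42, and none was called. *March9* was 12.9 ± 0.943 CPM in vehicle-treated and 14.4 ± 0.934 CPM in SK-124-treated mice (SD, n = 6; log2 fold change 0.16, FDR = 0.092), and the noncoding *A730063M14Rik* was 1.29 ± 0.370 and 1.07 ± 0.455 CPM (log2 fold change -0.27, FDR = 0.51). The noncoding *Gm49335* and *Gm47972* had at most 3 and 1 reads, *Mir546* had less than 1, and *Gm4178* and *Gm23664* were listed at 0.

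Within 500 kb, 26 of 52 annotated genes were tested, 4 rose and 4 fell. These 8 called genes are 30.8% of those tested, beside 24.4% of all genes. With library totals, where the median of all genes was -0.12, 1 rose and 8 fell. With SK-124-treated mice 1 to 3 alone 3 rose and 3 fell, and with mice 4 to 6 alone 3 rose and 1 fell. The genes named next were called with all 12 mice, and not all of these calls held in both sets of mice. Outside the 10 neighbours 17 were tested. *Mars*, the cytosolic methionyl-tRNA synthetase, rose (log2 fold change 0.21, FDR = 0.0086). *Atp23* (-0.67, FDR = 0.013), *Arhgef25* (-0.48, FDR = 0.049), *Arhgap9* (-0.84, FDR = 0.023) and *Ndufa4l2* (-0.65, FDR = 0.0066) fell. The most abundant others, *Shmt2* (0.03, FDR = 0.73), *R3hdm2* (0.02, FDR = 0.87) and *Pip4k2c* (0.02, FDR = 0.79), were not called. Of the 38 genes tested within 1 Mb, all had an upper 95% bound below the lower bound of *Cyp27b1*, and after the 1.83-fold of *Eef1akmt3* the next value was 1.34-fold. Across the 26 genes within 500 kb the Spearman correlation of distance with log2 fold change was -0.409, and across the 38 within 1 Mb it was -0.159. These genes share the same 12 libraries and are not independent.

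**Figure D3:**
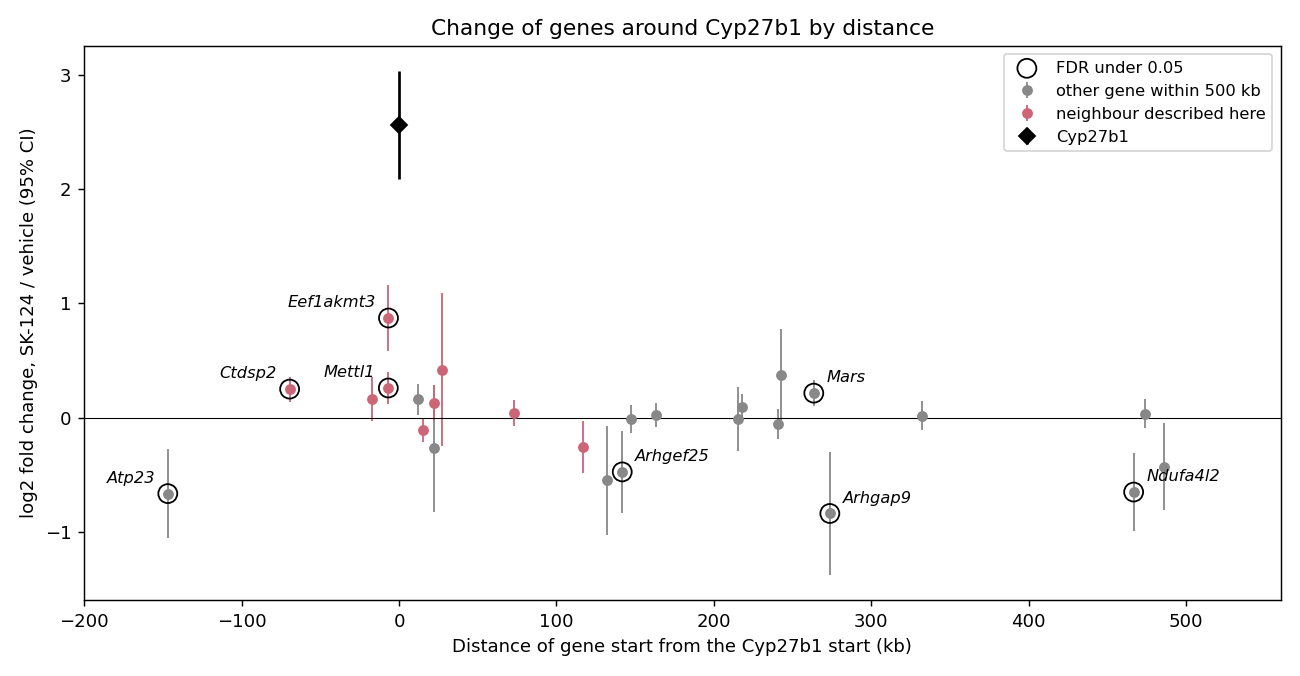
log2 fold change of SK-124 over vehicle with its 95% interval (vertical axis) against the distance of each gene start from the *Cyp27b1* start in kb (horizontal axis), for *Cyp27b1* and the 26 other genes tested within 500 kb. *Cyp27b1* at 2.56 stands alone, *Eef1akmt3* at 0.87 is the highest of the rest, and the 3 circled neighbours that rose all lie to the left of 0. *Atp23*, circled on the same side at -146.9 kb, fell (-0.67).

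The working partners of the neighbours, which lie elsewhere in the genome, were examined in 10 lists with 52 genes, all tested. Of these 6 rose (11.5%) and 7 fell (13.5%), close to the 10.8% and 13.5% of all genes, so the counts do not set the partners apart and the named genes are given as values. *Wdr4*, the partner of METTL1 in the tRNA methyltransferase, was 9.31 ± 1.1 CPM in vehicle-treated and 9.52 ± 1.35 CPM in SK-124-treated mice (SD, n = 6; log2 fold change 0.03, FDR = 0.85). Of 7 genes around the methylation of eEF1A 0 were called, with a median log2 fold change of -0.14. The substrate *Eef1a1* was 2268 ± 58.7 and 2481 ± 104.5 CPM (0.13, FDR = 0.088) and the related methyltransferases *Eef1akmt1* (-0.14, FDR = 0.39) and *Mettl13* (-0.20, FDR = 0.25) were not called. Of 4 mitochondrial elongation genes, *Gfm1*, elongation factor G, rose (0.15, FDR = 0.037).

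In the CDK4 list of 9 genes, the D-type cyclin *Ccnd1* fell from 106.7 ± 12.8 to 55.7 ± 6.14 CPM (log2 fold change -0.94, FDR = 3.3e-07), and the inhibitors *Cdkn1a*, from 9.66 ± 1.05 to 104.3 ± 18.3 CPM (3.43, FDR = 1.9e-12), and *Cdkn1b* (0.32, FDR = 0.0011) rose. In the ganglioside list of 6 genes, *St8sia1*, the GD3 synthase, which feeds B4GALNT1, fell (-0.62, FDR = 9.6e-05), as did *St3gal2* (-0.39, FDR = 0.0034), while the lactosylceramide synthase *B4galt6* rose (0.60, FDR = 3.8e-05). Of 8 genes of the endoplasmic reticulum lectin and dislocation complex, *Sel1l*, the adaptor that binds OS9, rose (0.26, FDR = 0.016). Of 3 small phosphatases related to *Ctdsp2*, *Ctdsp1* fell (-0.17, FDR = 0.030). The villin and gelsolin relatives of *Avil* had 2 of 6 lower, *Svil* (-0.32, FDR = 0.010) and *Scin* (-0.36, FDR = 0.035). Of 6 tetraspanins, *Tspan13* rose (0.33, FDR = 0.0088) and *Cd81* fell (-0.17, FDR = 0.038). *Agap1* (0.07, FDR = 0.49) and *Agap3* (0.00, FDR = 0.98) were not called.

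The way of processing mattered for the small changes and not for the call of *Eef1akmt3*, which was made in all 24 alternatives, with a log2 fold change from 0.39 to 1.02. The 0.39 is from limma on log2(TPM + 1), where the added 1 shrinks the change of a gene at 0.903 and 1.48 TPM. With log2(TPM + 0.1) it was 0.67. With library totals 1 of 9 neighbours (11.1%) was called higher, *Eef1akmt3*, beside 5.49% of all genes. *Cdk4* and *B4galnt1* (22.2%) were called lower, where the median of all genes was -0.12. With limma on log2(TPM + 1) 1 of 8 (12.5%), again *Eef1akmt3*, was higher beside 3.45% of all genes, and *Cdk4* was lower, where the median of all genes was -0.11. The share of all genes called lower in these settings is not given here, so the lower counts do not set the neighbours apart.

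**Figure D4:**
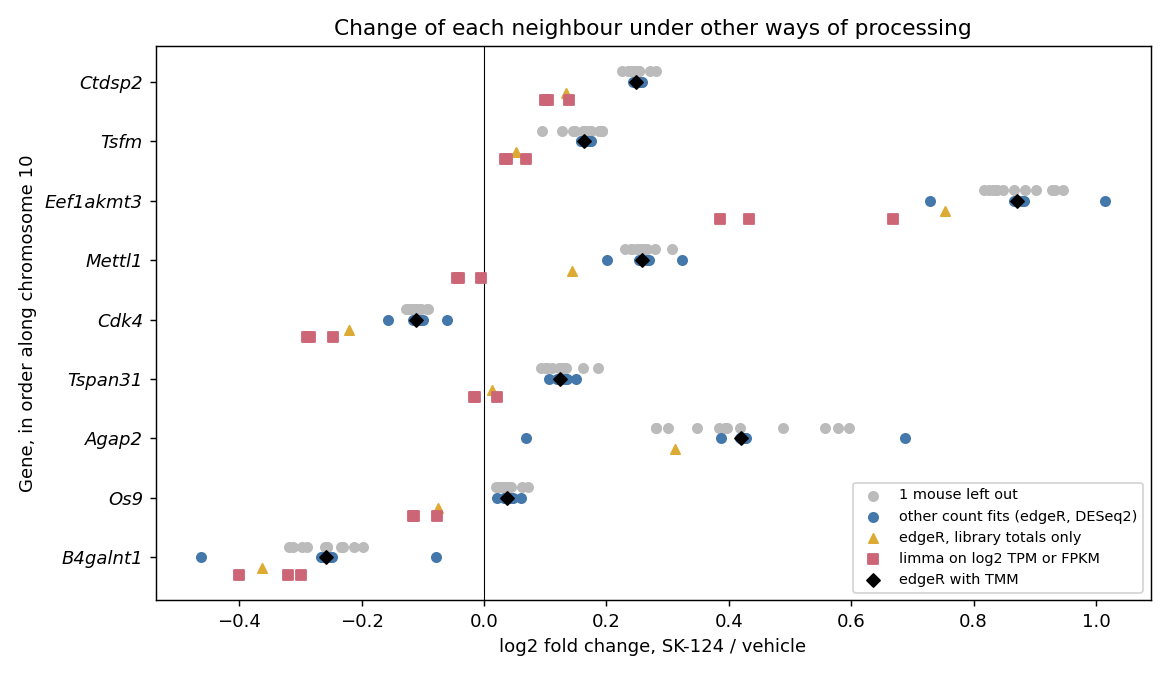
log2 fold change of SK-124 over vehicle (horizontal axis) of the 9 neighbours tested (vertical axis, in chromosome order) in the edgeR fit with TMM and under each alternative. *Eef1akmt3* stays right of 0 throughout, between 0.39 (on log2(TPM + 1), shrunk by the added 1) and 1.02, while *Mettl1*, *Tspan31* and *Os9* cross 0 on the TPM scale.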

How the data were processed

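Whole-kidney RNA-Seq of 12 mice was used, 1 library per mouse (BGISEQ500). The authors deposited 1 RSEM gene table per mouse. Its expected counts are estimated reads per gene without normalization, and the authors' TPM and FPKM values in the same table were scaled by RSEM to effective transcript length and library total. The submitters' processing notes name STAR 2.7.2b, RSEM 1.3.0, FastQC, DESeq2 and the build mm10. The annotation release and the use of strand are not given in the sources used here. Of 55401 identifiers, 54349 matched GENCODE M21 with their version.

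Groups came from the sample labels. Expected counts were rounded, scaled with TMM, filtered with filterByExpr (14159 genes left) and compared by the quasi-likelihood test of edgeR (edgeR 4.0.16, R 4.3.3), and FDR is the Benjamini-Hochberg adjusted p over all genes tested. limma 3.58.1 and DESeq2 1.42.0 served as alternatives. Intervals of fold changes are 95% intervals. Single ratios were compared on log2(CPM + 0.5) by exact permutation, two-sided (Python 3.11.15). Each method was tested on simulated data. Between mice of a group, chi-square per degree of freedom was at least 4.69 over 30 pairs, so no library looked like a copy of another. The labels do not say more of the mice than their numbers, so p-values measure the spread between these samples.

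Of the cell type markers that were called, 1 is not reported here. The neighbours and all lists were chosen with earlier results of these data known. The genes named are the 10 neighbours, *Cyp27b1*, all genes annotated within 100 kb, the called and the 3 most abundant others within 500 kb, and, of each partner list, the called genes or else 1 to 3 of the most abundant. Fits restricted to SK-124 mice 1 to 3, or to mice 4 to 6, were chosen after the data had been seen.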

Additional observations from a re-analysis of the deposited data

Results flagged for a closer look

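Among 22 sets of 6 mice (11 genes in 2 groups), 2 held a mouse far from its group, where chance alone gives about 1.1. Both were vehicle-treated mouse 3, the highest of its group for *Tspan31* (50.8 CPM) and for *Os9* (185.2 CPM). Without this mouse the log2 fold change of *Tspan31* was 0.19 (FDR = 0.030, edgeR) instead of 0.12.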

How the results depend on the processing

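*Cyp27b1* and *Eef1akmt3* kept their direction and call in all 24 alternatives. Of the 3 neighbours called higher, 1 was left with library totals and with limma on log2(TPM + 1), log2(TPM + 0.1) and log2(FPKM + 1). In place of 0 called lower there were 2 with library totals, 1 in each of the 3 limma fits, and 1 with SK-124-treated mice 1 to 3. Leaving out each mouse gave 3 to 4 higher and 0 to 1 lower. Within 500 kb, genes called higher went from 4 to 1 with library totals and all 3 limma fits. Those called lower went from 4 to 8 with library totals, 2 with DESeq2 and 1 with SK-124-treated mice 4 to 6, and to between 2 and 5 (6 to 10 called in all) when each mouse was left out. The median of all genes was -0.12 with library totals and from -0.14 to -0.08 in the limma fits. The share of all genes called lower in those fits is not given here. The total of 8 became 5 with log2(TPM + 0.1), 4 with log2(FPKM + 1), 4 with SK-124-treated mice 4 to 6, and 3 (0 lower) within 100 kb. *Os9* changed sign with library totals (-0.0757), log2(TPM + 1) (-0.115), log2(TPM + 0.1) (-0.116) and log2(FPKM + 1) (-0.0768), *Mettl1* in the limma fits in that order (-0.0408, -0.0443, -0.005) and *Tspan31* with log2(TPM + 1) (-0.0151) and log2(TPM + 0.1) (-0.0158). The cause was not tested. The replicate numbers did not pair the mice (same-number correlations from -0.131 to 0.217). With the replicate number as a block 1 neighbour was called lower, *B4galnt1* (-0.27, FDR = 0.040), and no other call on a neighbour changed. The counts of neighbours differing from *Cyp27b1* (10) and following it between mice (0) were the same in every alternative run, the block included. The 10 include *Avil*, whose ratio is set by the added constant. With TMM, the ratio to *Cyp27b1* also did not overlap between groups for 98.6% of all other genes. *Agap2* and *Avil*, with few reads, are limited by depth.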

Other observations

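Farther out, between 500 kb and 1 Mb from the *Cyp27b1* start, 12 genes were tested and 2 were called, both higher. Of all genes tested, 24.4% were called in either direction and 10.8% as higher, so this count does not set the stretch apart. *Gpr182*, an orphan G protein-coupled receptor gene of endothelium, was 5.23 ± 1.02 CPM in vehicle-treated and 6.75 ± 0.817 CPM in SK-124-treated mice (SD, n = 6; log2 fold change 0.36, FDR = 0.039, edgeR). *Rdh16*, a retinol dehydrogenase gene, was 53.6 ± 4.02 and 65.3 ± 6.55 CPM (0.29, FDR = 0.0058). They were named after their values were seen.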
